A study of Mus musculus with 14 samples.

Results

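The 10 genes described here handle cytosolic calcium or answer to it. They were chosen by name from the calcium pump, store-operated entry and NFAT pathways, with earlier results of these data in view. They are Atp2b1, Atp2b4, Atp2a2, Orai1, Stim1, Rcan1, Rcan2, Nfatc1, Nfatc2 and Nfatc4. All 10 were found, once each, among the 16481 genes of the pancreatic stellate cell (PSC) table and among the 54532 genes of the liver table. Because the PSC comparison was known when the genes were chosen, their differences with Yoda1 are given as a description, without a p-value.

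RNA-Seq was performed on 6 libraries of mouse PSCs and on 8 livers of tumor-bearing mice. PSCs, the fibroblast-like cells that lay down matrix in the pancreas, came from 3 preparations labelled bio rep 1 to 3. Each preparation gave a library treated with DMSO, the solvent, and a library treated with Yoda1 at 25 μM, an agonist of the mechanosensitive calcium channel PIEZO1. The study's methods give 24 hours of Yoda1, the legend of the matching supplementary figure gives 72 hours. The methods describe cells kept on Matrigel in medium with serum, and one passage of them speaks of human PSCs where the sample labels give mouse. The genotype and sex of the mice that gave the PSCs were not stated in the sources used here. Livers were taken from 3 groups of mice: WT (2 livers), TRPV4-KO (3 livers), and WT dosed by gavage with GSK219, the TRPV4 antagonist GSK2193874, at 10 mg/kg every day (3 livers). WT mice were Piezo1 fl/fl mice, and TRPV4-KO mice carried the Trpv4-/- mutation in every tissue. All had received KPCY pancreatic cancer cells, which carry functional Trpv4, in the tail of the pancreas, and livers were taken 20 days later. Mice were 8 to 12 weeks old. Whether WT and TRPV4-KO mice were gavaged with the carrier was not stated. The tests below measure the spread between these samples.

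A resting cell holds its cytosolic calcium far below the level outside. Pumps of the plasma membrane (the PMCA family, genes Atp2b1 to Atp2b4) push calcium out, and the pump SERCA2, product of Atp2a2, returns it to the endoplasmic reticulum. When that store empties, its sensor STIM1 opens the ORAI1 channel of the plasma membrane, which is called store-operated entry. A lasting rise in calcium activates the phosphatase calcineurin through calmodulin, calcineurin removes phosphates from NFAT transcription factors, and these move to the nucleus. RCAN1 and RCAN2 bind calcineurin and restrain it, and Rcan1 is a textbook NFAT target, since NFAT drives a transcript that starts inside the gene. PIEZO1 and TRPV4, the channels of this study, both admit calcium.

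RefSeq promoters of Rcan1, Rcan2 and Atp2b4 are shown because these genes had the largest differences with Yoda1. Each runs 5′ to 3′ on the gene's strand, from 250 bases before to 50 bases after a transcript start (build GRCm38.p6), and capitals mark the NFAT core GGAAA or its reverse complement TTTCC, and the cAMP and calcium response element TGACGTCA. The Rcan1 promoters lie on the minus strand at chr16:92400029-92400328, inside the gene, and at chr16:92466120-92466419, near its outer end. The Rcan2 promoter shown, the first of its 3, lies on the plus strand at chr17:43801102-43801401, and the Atp2b4 promoter on the minus strand at chr1:133753698-133753997, which is 47.3 kb inside the span that the liver table gives for Atp2b4.
Rcan1, internal start: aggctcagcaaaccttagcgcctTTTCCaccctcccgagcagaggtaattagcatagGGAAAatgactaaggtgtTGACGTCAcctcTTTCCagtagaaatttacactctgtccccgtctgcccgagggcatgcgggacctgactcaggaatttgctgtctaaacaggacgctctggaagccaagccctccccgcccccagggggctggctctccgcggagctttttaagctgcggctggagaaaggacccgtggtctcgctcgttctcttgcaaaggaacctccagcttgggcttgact
Rcan1, upstream start: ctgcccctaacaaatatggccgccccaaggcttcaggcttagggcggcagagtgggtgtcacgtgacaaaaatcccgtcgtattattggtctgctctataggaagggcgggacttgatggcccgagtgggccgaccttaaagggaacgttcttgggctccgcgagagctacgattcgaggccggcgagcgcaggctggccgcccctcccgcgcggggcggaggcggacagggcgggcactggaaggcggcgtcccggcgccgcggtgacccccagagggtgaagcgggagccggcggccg
Rcan2, first start: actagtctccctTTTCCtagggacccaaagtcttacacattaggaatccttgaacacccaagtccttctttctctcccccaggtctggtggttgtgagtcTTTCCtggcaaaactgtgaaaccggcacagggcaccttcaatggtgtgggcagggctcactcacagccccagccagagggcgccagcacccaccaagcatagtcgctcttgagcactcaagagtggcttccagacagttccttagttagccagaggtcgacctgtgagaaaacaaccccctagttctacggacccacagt
Atp2b4: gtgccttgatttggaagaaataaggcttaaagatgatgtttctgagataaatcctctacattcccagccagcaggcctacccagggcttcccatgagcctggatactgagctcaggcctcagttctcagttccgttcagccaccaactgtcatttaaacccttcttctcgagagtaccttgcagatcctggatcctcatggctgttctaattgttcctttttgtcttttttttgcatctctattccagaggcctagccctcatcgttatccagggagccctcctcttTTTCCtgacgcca
The internal Rcan1 promoter held 3 NFAT cores and the calcium response element, all between 227 and 163 bases before the transcript start and none overlapping. The upstream Rcan1 promoter held none of these letters. The first Rcan2 promoter held 2 cores, at 238 and 150 bases before the start, while the other Rcan2 promoters, at chr17:43801601-43801900 and chr17:43952749-43953048, held none of these letters, and Atp2b4 held 1, in the transcribed part after the start.

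The search covered 13 promoters of 8 of the 10 genes, and Nfatc1 and Atp2a2 were not searched. At least 1 NFAT core stood in 7 of the 13 (53.8%), against 61.3% of all 32851 RefSeq promoters of this length, so the core alone did not set these genes apart. At least 3 cores stood in 3 of the 13, those of the internal Rcan1 start, Nfatc4 and the first start of Nfatc2, against 9.42% of all promoters. TGACGTCA stood in 1.79% of all promoters, and it stood together with at least 3 cores in 59 of them (0.18%). An endoplasmic reticulum stress element, CCAAT followed after 9 bases by CCACG on either strand, stood in 0.119% of all promoters and in none of the 13. These are matches of letters, and the deposited values count a gene as a whole and do not separate its transcript starts.

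Yoda1-treated PSCs had less of the export pump Atp2b4, more of its relative Atp2b1, and more of the calcineurin inhibitors Rcan2 and Rcan1. The store pump Atp2a2, the sensor Stim1 and the factor Nfatc4 had nearly the same values in both treatments, while Orai1 was somewhat higher and Nfatc1 and Nfatc2 were somewhat lower. Values are the deposited reads divided by the library's size factor, and log2 fold changes are Yoda1 minus DMSO on log2(value + 1), with their standard error (SE). Of the 10 genes, 3 had Yoda1 libraries all above the DMSO libraries and 1 had them all below. Of the 15145 genes tested, 14.9% did not overlap with Yoda1 higher and 15.1% did not overlap with Yoda1 lower.

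**Figure D1:**
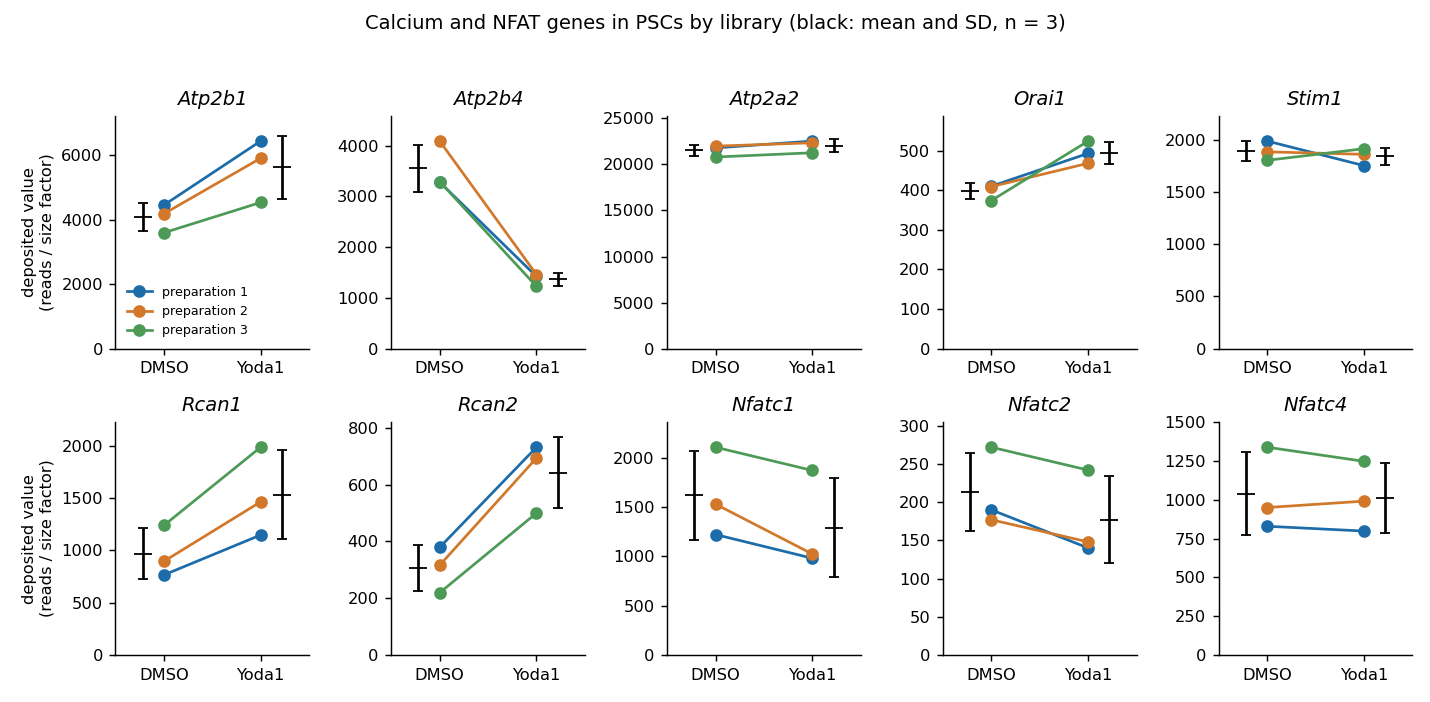
Deposited value (reads divided by the size factor) of each of the 10 genes in every PSC library, with DMSO and Yoda1 on the horizontal axis, a line joining the libraries of a preparation, and the mean and SD of each treatment in black (n = 3). All 3 Atp2b4 lines fall, from 3282, 4090 and 3292 to 1423, 1461 and 1228, and preparation 3 is highest for Rcan1, Nfatc1, Nfatc2 and Nfatc4 in both treatments.

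Atp2b4 encodes PMCA4, a pump that sends calcium out of the cell. Its values were 3282, 4090 and 3292 with DMSO and 1423, 1461 and 1228 with Yoda1, in preparations 1, 2 and 3. Every Yoda1 library was far below every DMSO library. Its log2 fold change was -1.37 (SE 0.11, or 0.07 with the preparation added to the model). This is 2.59-fold lower, with -1.2, -1.48 and -1.42 within the preparations.

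Atp2b1 encodes PMCA1, the PMCA pump found in most cell types. It had values of 4447, 4178 and 3592 with DMSO and 6431, 5900 and 4530 with Yoda1. The groups did not overlap, but Yoda1 in preparation 3 was close to DMSO in preparation 1. A log2 fold change of 0.45 (SE 0.15, or 0.06 with the preparation added to the model) resulted. It was positive in 3 of 3 preparations, at 0.53, 0.5 and 0.33.

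Per kilobase of gene length, the 2 pump genes were level with DMSO and apart with Yoda1. Atp2b4 made up 47.8%, 54.9% and 53.2% of their sum in the DMSO libraries and 21.6%, 23.5% and 25.2% in the Yoda1 libraries. The opposite differences of the pair therefore moved the share of Atp2b4 in every preparation. Their relative Atp2b2 was near the floor, at 0.66 ± 0.431 (SD, n = 3) deposited value per kilobase with DMSO and 0.78 ± 0.264 with Yoda1.

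Atp2a2, the SERCA2 pump that refills the store, had values of 21788, 21978 and 20799 with DMSO and 22531, 22343 and 21261 with Yoda1. The groups overlapped, and the log2 fold change was 0.03 (SE 0.06). On the scale per kilobase Atp2a2 stood far above the other 9 genes in both treatments, at 3539 ± 104 with DMSO and 3625 ± 113 with Yoda1.

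Orai1, the pore of store-operated entry, had values of 410, 409 and 374 with DMSO and 493, 468 and 524 with Yoda1. All 3 Yoda1 libraries were above the DMSO libraries. The log2 fold change was 0.31 (SE 0.08), and the largest of the differences within a preparation, 0.48, came from preparation 3. Stim1, the sensor that opens ORAI1, had values of 1986, 1883 and 1802 with DMSO and 1751, 1859 and 1913 with Yoda1. Its groups overlapped, and the preparations went different ways, at -0.18, -0.02 and 0.09.

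Rcan2, a calcineurin inhibitor, had values of 379, 316 and 219 with DMSO and 732, 694 and 500 with Yoda1. It had the largest increase of the 10 genes. Its log2 fold change was 1.09 (SE 0.24, or 0.08 with the preparation added to the model). This is 2.13-fold higher, with 0.95, 1.13 and 1.19 within the preparations.

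Rcan1, the inhibitor whose internal promoter carries the NFAT cores shown above, had values of 764, 894 and 1237 with DMSO and 1146, 1463 and 1985 with Yoda1. The groups overlapped, because DMSO in preparation 3 was above Yoda1 in preparation 1, yet each preparation was higher with Yoda1 and by a similar amount. Its log2 fold change was 0.66 (SE 0.24), with 0.58, 0.71 and 0.68 within the preparations. With the preparation added to the model the SE was 0.06, since most of the spread of Rcan1 lay between preparations.

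The NFAT factors did not share the direction of the RCAN genes. Nfatc1 had values of 1223, 1532 and 2110 with DMSO and 982, 1025 and 1874 with Yoda1. Its groups overlapped, while each preparation was lower with Yoda1, for a log2 fold change of -0.36 (SE 0.3). Nfatc2 had the lowest level of the 10 genes, with values of 190, 177 and 272 with DMSO and 140, 148 and 242 with Yoda1. It too was lower in each preparation in overlapping groups, with a log2 fold change of -0.28 (SE 0.26). The fit does not pair the libraries, and the size of both differences moved when a single library was left out. Nfatc1 was -0.15 without the DMSO library of preparation 3, -0.19 and -0.22 without the Yoda1 libraries of preparations 1 and 2, and -0.66 without the Yoda1 library of preparation 3. With the same libraries left out in turn, Nfatc2 was -0.1, -0.14, -0.18 and -0.53. Such runs break a pair, so they also carry the level of the preparation. Leaving out whole preparations 1, 2 and 3 gave -0.37, -0.24 and -0.45 for Nfatc1, and -0.21, -0.3 and -0.34 for Nfatc2. With the preparation added to the model the SE was 0.08 for Nfatc1 and 0.11 for Nfatc2. Nfatc4 had values of 830, 951 and 1340 with DMSO and 799, 992 and 1249 with Yoda1, which overlapped almost wholly. Its log2 fold change was -0.03 (SE 0.22, or 0.06 with the preparation added to the model).

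Since the genes were chosen with this contrast in view, their calls are given as counts only and nothing is read from them. By limma's moderated test at an adjusted p under 0.05, 1 of the 10 genes was called, as were 4.66% of all genes tested, and with the preparation as a block 5 of the 10, as were 18.2% of all genes.

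Per kilobase of gene length, the order of the levels with DMSO was Atp2a2, Rcan1, Atp2b4, Atp2b1, Nfatc1, Stim1, Nfatc4, Orai1, Rcan2 and Nfatc2. From Rcan1 at 313 ± 79.2 to Orai1 at 173 ± 8.9 (SD, n = 3) each neighbour overlapped the next. The gaps below Atp2a2, below Orai1 and above Nfatc2, at 20.1 ± 4.85, were the places where neighbours did not overlap. With Yoda1, Atp2b4 stood ninth at 112 ± 10.2, below Rcan2 at 147 ± 28.5, whose lowest library overlapped it. Among family members that are not of the 10, Stim2 (391 ± 15.1 with DMSO), Nfatc3 (298 ± 1.29) and Nfat5 (411 ± 18.7) were above Stim1 and the 3 NFAT members on this scale.

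**Figure D2:**
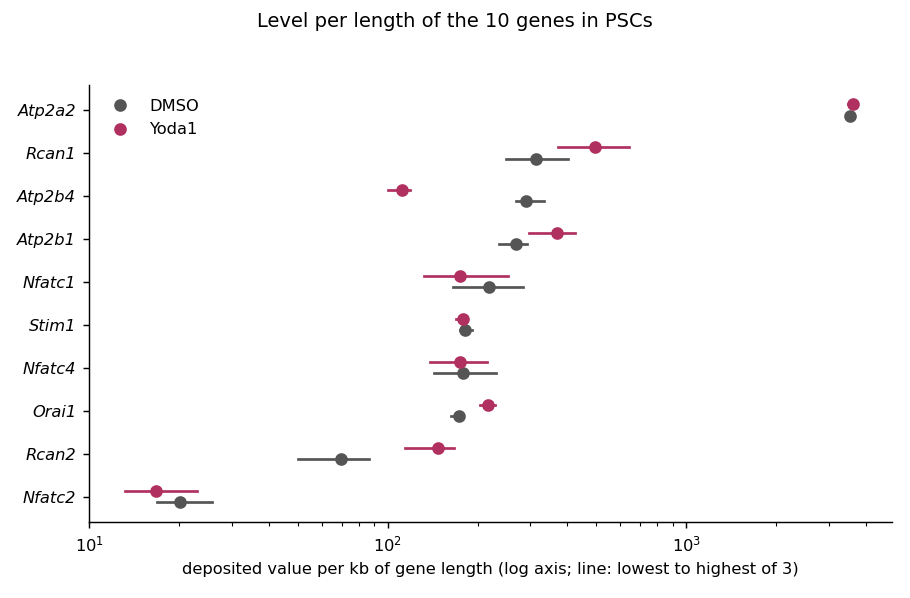
Mean deposited value per kilobase of gene length of the 10 genes in PSCs on a log axis, with DMSO in grey, Yoda1 in red, and lines from the lowest to the highest of the 3 libraries. Atp2a2 lies far to the right in both treatments, Atp2b4 moves left from 290 to 112 with Yoda1, and Rcan2 moves right from 69.7 to 147.

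Preparation 3 stood apart for several of these genes in both treatments. With DMSO its value over that of preparation 1 was 1.62 for Rcan1, 1.72 for Nfatc1, 1.43 for Nfatc2 and 1.61 for Nfatc4, but 0.578 for Rcan2 and 0.808 for Atp2b1. The summed level of 7 duct and epithelial markers was 75548, 73646 and 104403 with DMSO and 58494, 64454 and 130977 with Yoda1, highest in preparation 3, and all 7 were detected in each library. The sum of 8 acinar markers, all detected in each library, ran from 1114 in preparation 1 to 6658 in preparation 3 with DMSO, and from 1344 to 13029 with Yoda1. Epithelial and acinar markers were thus present in these cultures. The acinar sum had the same order over the preparations as Rcan1, Nfatc1 and Nfatc4 in both treatments, and, outside the 10, as Rcan3. How many of all genes had this order was not counted. The sum of the 10 stellate cell and fibroblast markers in the table was 818367 to 914717 with DMSO and 406447 to 517594 with Yoda1, all 10 detected. Endothelial markers (6 of 7 in the table) summed to 1797 to 2197 with DMSO and 1273 to 1466 with Yoda1, and the 2 of 5 Schwann cell and nerve markers in the table to 12923 to 15075 and 6838 to 8913, so these sums too were lower with Yoda1 without overlap. The part of these shifts in the differences of the 10 genes was not tested, and fewer cells of a type and less RNA per cell cannot be told apart in such samples.

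Piezo1, the target of Yoda1, was well expressed in every PSC library, at 16698, 16580 and 14295 with DMSO and 16018, 15077 and 13819 with Yoda1. Trpv4 had values of 301 to 376 with DMSO and 365 to 576 with Yoda1. Neither passed the threshold by limma (adjusted p = 0.62 and 0.29).

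The wider calcium pathway was followed with 12 lists of 117 genes outside the 10, of which 86 passed the filter on low values in PSCs. Of these 86, 2 rose and 6 fell with Yoda1 by limma's moderated test at an adjusted p under 0.05, against 2.19% of all genes higher and 2.47% lower. The median log2 fold change of the 86 was -0.06, and that of all genes was -0.006. With the preparation as a block, 9 rose and 13 fell, against 8.68% and 9.55% of all genes. The counts by list that follow are without the block, and those with the block are given after them for the lists described there. These lists were written with earlier results of the data known.

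Among calcium exporters, 1 of 6 genes tested fell, Slc24a3, a potassium-dependent sodium/calcium exchanger. Its values were 468, 375 and 423 with DMSO and 246, 233 and 166 with Yoda1, a log2 fold change of -0.98 (SE 0.17, adjusted p = 0.032 by limma). Like Atp2b4, it removes calcium from the cytosol, and it was lower in each preparation. Of 9 genes of store release, 1 fell, Mrvi1, which encodes the IP3 receptor-associated cGMP kinase substrate, from 1297, 1197 and 1205 to 658, 705 and 507 (log2 fold change -1, SE 0.13, adjusted p = 0.015 by limma). None of the IP3 receptor genes Itpr1, Itpr2 and Itpr3 passed without the block.

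Of 8 further genes of store-operated entry, 1 fell, the second store sensor Stim2. Its values went from 1927, 2081 and 2012 to 1702, 1536 and 1431 (log2 fold change -0.37, SE 0.08, adjusted p = 0.048 by limma). The call was close to the threshold and was lost by edgeR on recovered reads (adjusted p = 0.053). Per kilobase Stim2 was the more abundant sensor. Of 10 genes of calcium-binding proteins of the store, 1 fell, Rcn2 (reticulocalbin 2), from 4278 ± 104 to 3445 ± 71 (SD, n = 3; adjusted p = 0.023 by limma). None of 4 further store-filling genes and none of 8 genes of mitochondrial uptake passed, with log2 fold changes of -0.6 to 0.06 and of -0.3 to 0.22 (0 and 2 genes had an unadjusted p under 0.05, as did 22.7% of all genes tested).

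None of 7 calmodulin and calcineurin genes passed without the block, with log2 fold changes between -0.2 and 0.07. Of these 7, 4 had an unadjusted p under 0.05 by limma, against 22.7% of all genes tested. Of 7 further inhibitors and scaffolds, 1 rose and 1 fell. Chp1, a calcineurin B homologous protein, rose from 3125, 3149 and 2830 to 4017, 3967 and 4001 (log2 fold change 0.4, SE 0.06, adjusted p = 0.019 by limma). Akap5, a scaffold that holds calcineurin at the membrane, fell from 1858, 1631 and 1224 to 740, 720 and 666 (log2 fold change -1.13, SE 0.15, adjusted p = 0.016 by limma).

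Of 10 calmodulin-dependent kinase genes, with Creb1 among them, 1 rose and 1 fell. Camk4, a kinase that acts on nuclear factors, fell from 259, 359 and 510 to 88.4, 93.8 and 114, the largest difference of any pathway gene called (log2 fold change -1.87, SE 0.25, adjusted p = 0.016 by limma). Camk1d rose from 99.8, 116 and 96.9 to 180, 157 and 180 (log2 fold change 0.72, SE 0.13, adjusted p = 0.036 by limma). Neither Nfatc3 nor Nfat5 passed, nor did any of 8 NFAT kinases. Of 18 genes known as NFAT targets from other cell types, 7 passed the filter and none was called, with 1 at an unadjusted p under 0.05. All 8 pathway genes called lost the call when the Yoda1 or the DMSO library of preparation 2 was left out (adjusted p from 0.062 to 0.2 by limma). So did most other genes. Calls among all genes went from 331 higher and 374 lower to 15 and 22 without that Yoda1 library, and to 17 and 22 without that DMSO library. Each of the 8 kept its direction in every alternative run. Without the variance trend and robust moderation of limma, both left out together, Slc24a3, Stim2, Rcn2 and Chp1 lost the call (adjusted p from 0.054 to 0.094).

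With the preparation as a block, further genes of these lists passed, and the 8 named above kept their direction. Among inhibitors and scaffolds the count was 3 higher and 2 lower, with Rcan3, the third RCAN gene, and Homer3 among those higher and Fkbp1a among those lower. Rcan3 had values of 774, 837 and 1019 with DMSO and 1015, 1029 and 1356 with Yoda1. Its groups overlapped, but like Rcan1 it was higher in each preparation, by 0.39, 0.3 and 0.41 on the log2 scale (log2 fold change 0.37, SE 0.15 and adjusted p = 0.21 without the block, SE 0.06 and adjusted p = 0.011 with it, by limma). In store release the block gave 2 higher, the IP3 receptors Itpr2 and Itpr3, and 1 lower. It gave 0 higher and 2 lower among exporters, 0 and 3 among store proteins, and 0 and 2 among calmodulin and calcineurin genes (Calm2 and Calm3). Among NFAT kinases 1 rose, Dyrk1b, and among NFAT targets 1 rose, Ptgs2, the gene of cyclooxygenase-2.

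**Figure D3:**
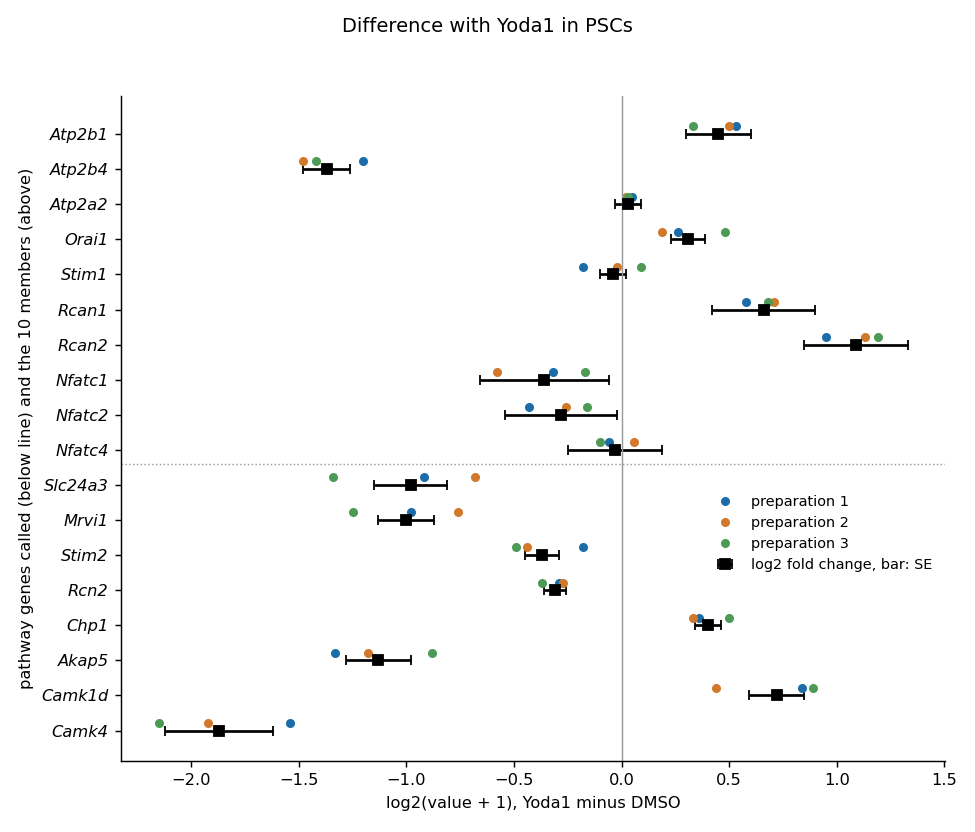
Difference with Yoda1, on log2(value + 1), for the 10 genes (above the dotted line) and the 8 pathway genes called (below it), with squares for the log2 fold change and its SE and circles for the 3 preparations. Atp2b4 at -1.37 and Camk4 at -1.87 lie far to the left and Rcan2 at 1.09 far to the right, and the circles of Stim1 and Nfatc4 fall on both sides of 0.

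In the livers, none of the 10 genes was called between WT and TRPV4-KO or between WT and GSK219. The question of these comparisons is whether loss or block of TRPV4 in the tumor-bearing host changed calcium genes of the liver. edgeR's quasi-likelihood test on counts was run on all 8 livers, 15118 genes tested, and all 10 genes passed its filter. Log2 fold changes are WT minus the other group. The 2 comparisons share the 2 WT livers. Of all genes tested, 0.291% were called between WT and TRPV4-KO and 0% between WT and GSK219. Of the 10 genes, 1 and 0 had an unadjusted p under 0.05, against 17.1% and 8.22% of all genes, and DESeq2 called 0 in both, against 5.46% and 0.767%.

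Trpv4 itself had 43 and 53 counts in WT livers, 15, 5 and 23 in TRPV4-KO livers and 20, 30 and 36 in GSK219 livers. The knockout livers were lowest on average and still had reads on the gene, and gene counts do not show where in it they lay. The log2 fold change of WT over TRPV4-KO was 1.71 (SE 0.5, adjusted p = 0.16 by edgeR), and DESeq2 gave an adjusted p of 0.036. Livers had 15567031 to 17395299 counts on genes. All 8 hepatocyte markers were detected in every liver, with sums of 71544 and 59762 normalized CPM (counts scaled to a common library total) in WT livers and 78836 to 99607 in the others. Summed levels of 8 neutrophil markers were 50.9 and 60.6 CPM in WT livers, 1.14 to 6.43 in TRPV4-KO livers, where up to 5 of the 8 were at 0, and 2.27 to 5.56 in GSK219 livers. The sum of 8 macrophage markers was 1480 and 1290 CPM in WT livers and 391 to 951 in the others. The 11 stellate cell and fibroblast markers summed to 464 and 339 CPM in WT livers and 135 to 282 in the others, and the 7 endothelial markers to 441 and 390 against 242 to 389. Differences between WT and the other groups came with these shifts in cell markers, whose part was not tested.

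Orai1, the store-operated channel, was the gene of the 10 with an unadjusted p under 0.05 between WT and TRPV4-KO. It had 243 and 319 counts in WT livers, 424, 509 and 341 in TRPV4-KO livers and 294, 199 and 350 in GSK219 livers. WT did not overlap with TRPV4-KO and overlapped with GSK219. In normalized CPM the means were 16.8 ± 2.52 (SD, n = 2), 26.5 ± 6.62 (n = 3) and 17.1 ± 4.6 (n = 3). WT over TRPV4-KO, the log2 fold change was -0.66 (SE 0.28, adjusted p = 0.28 by edgeR), so it did not pass, and it stayed between -0.83 and -0.47 in the alternatives. Orai1 lies 8.36 Mb from Trpv4 on chromosome 5, and Atp2a2 lies 7.8 Mb from it.

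WT livers did not overlap with TRPV4-KO livers for 3 of the 10 genes, Orai1, Atp2b1 and Nfatc4, against 33.2% of all genes tested, and with GSK219 livers for 0 of 10, against 27.3%. Atp2b1 had 53.3 and 52.3 CPM in WT, 50.7, 49.6 and 47.4 in TRPV4-KO and 47, 40.8 and 53 in GSK219 livers, a difference of 0.1 (SE 0.13) on the log2 scale for WT over TRPV4-KO. Nfatc4 had 20 and 15 counts in WT livers and 5, 7 and 14 in TRPV4-KO livers, numbers at which counting error is large (log2 fold change 0.98, SE 0.61, adjusted p = 0.46 by edgeR). Nfatc2 was as sparse, with 28 and 16 counts in WT, 8, 14 and 23 in TRPV4-KO and 2, 16 and 24 in GSK219 livers.

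The other pumps, Stim1, Nfatc1 and Rcan1 overlapped between WT and both other groups. Atp2a2 had 3973 and 5094 counts in WT, 4251, 5051 and 3919 in TRPV4-KO and 4316, 3429 and 6047 in GSK219 livers, with the GSK219 livers the most spread. Per kilobase it again stood far above the other genes, at 44.6 ± 5.94 CPM in WT livers (SD, n = 2), with Rcan1 next at 8.95 ± 1.52. Atp2b4 had 172 and 173 counts in WT, 157, 127 and 247 in TRPV4-KO and 165, 158 and 191 in GSK219 livers. Its share of the summed Atp2b1 and Atp2b4 level per kilobase was 17.1% to 27.3% across the 8 livers. Stim1 had 788 and 905 counts in WT, 831, 777 and 1055 in TRPV4-KO and 858, 767 and 895 in GSK219 livers. Nfatc1 had 240 and 314 counts in WT, 255, 262 and 286 in TRPV4-KO and 265, 250 and 272 in GSK219 livers, and its WT values enclosed all the others in normalized CPM. Rcan1 had 500 and 417 counts in WT, 558, 486 and 423 in TRPV4-KO and 297, 319 and 672 in GSK219 livers, where GSK219 liver 3 stood well above the other GSK219 livers.

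**Figure D4:**
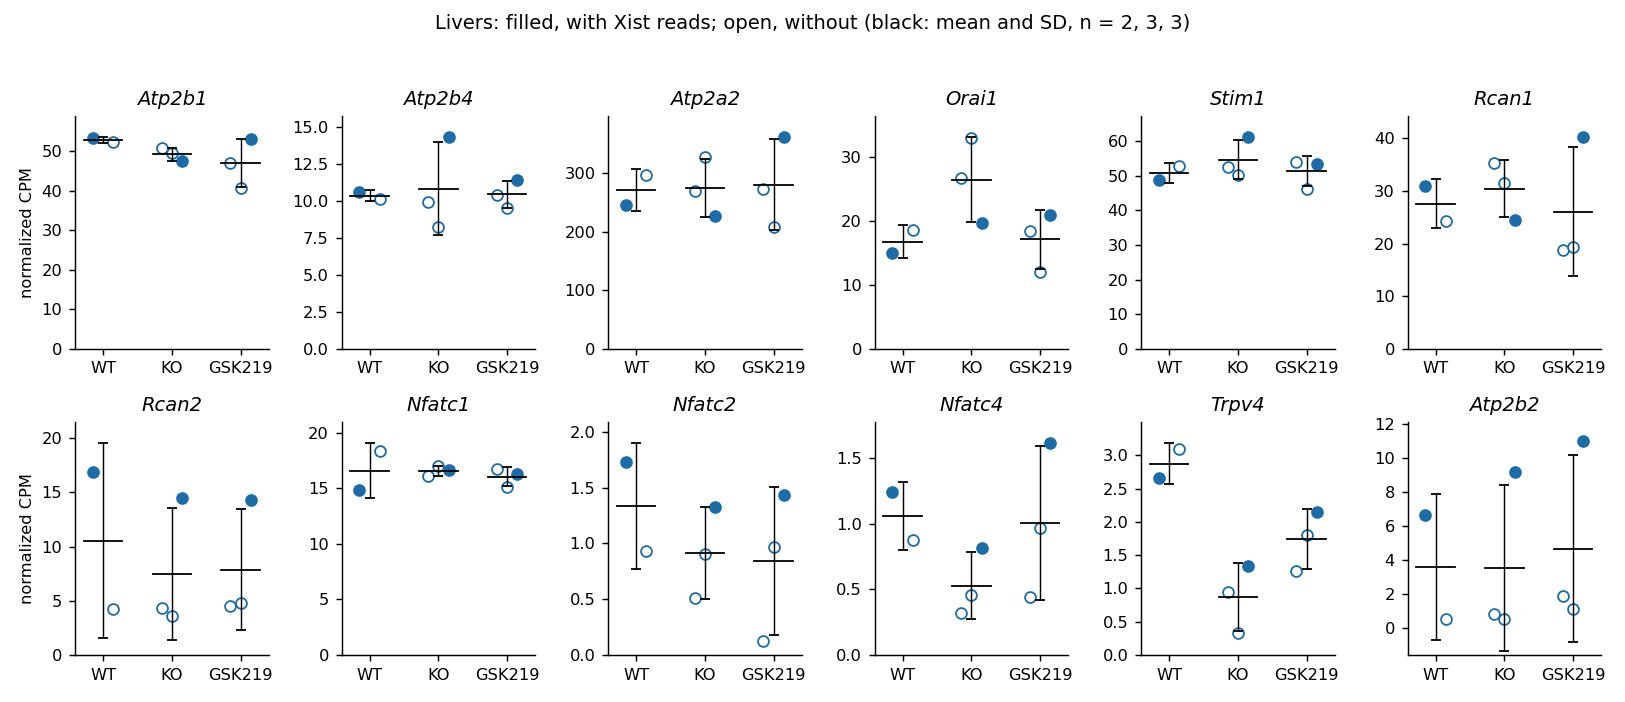
Normalized CPM of the 10 genes, Trpv4 and Atp2b2 in each liver of the WT, TRPV4-KO (KO) and GSK219 groups, with mean and SD in black (n = 2, 3 and 3). Filled circles are the 3 livers with Xist reads, which are the highest of their group for Rcan2 (16.9, 14.5 and 14.3 CPM) and Atp2b2 (6.62, 9.15 and 11 CPM).

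Rcan2 fell into separate levels within each liver group. It had 274 and 72 counts in the WT livers, 69, 56 and 251 in the TRPV4-KO livers and 72, 80 and 239 in the GSK219 livers. A single liver of each group was at 239 or more, and the other 5 were at 80 or fewer. These 3 livers, WT 1, TRPV4-KO 3 and GSK219 3, were also those with reads of Xist, the RNA of the inactive X chromosome in female cells, at 14224, 15754 and 13681 counts, against 0 to 7 in the others. The labels give no sex.

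A term for livers with Xist reads, in the same edgeR fit with the 3 groups, gave Rcan2 a log2 fold change of 1.81 (SE 0.14, adjusted p = 0.00028), 3.5-fold higher in livers with Xist reads. With each liver left out in turn it was 1.72 to 1.93, with adjusted p of at most 0.0035. Reading this term for Rcan2 was chosen after its counts were seen, and the livers with and without Xist reads are not groups of the study. Of all genes tested, 3.47% were called for the term, and Rcan2 was the only one of the 10 called. Summed macrophage, endothelial and stellate markers were also higher in the Xist liver than in the others of its group in each of the 3 groups, by 441 against 390 CPM for the 7 endothelial markers in WT, 370 against 291 and 242 in TRPV4-KO, and 389 against 292 and 362 in GSK219. Their part in the Rcan2 difference was not tested. Without WT liver 1, the log2 fold change of Rcan2 between WT and TRPV4-KO turned from 0.49 to -0.82, and that between WT and GSK219 from 0.42 to -0.91.

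None of the 79 pathway genes tested in the livers was called by edgeR in either comparison. At an unadjusted p under 0.05 there were 17 (21.5%) between WT and TRPV4-KO and 5 (6.33%) between WT and GSK219, near the shares of all genes given above, and DESeq2 called 4 and 2. Their median log2 fold change was 0.17 for WT over TRPV4-KO, against -0.011 for all genes, and 0.12 for WT over GSK219, against -0.001. Without TRPV4-KO liver 3, 15 of them were called between WT and TRPV4-KO, when 8.64% of all genes were (750 higher and 541 lower). For the Xist term 3 of the 79 were called, and they are named after their values were seen. Atp2b2, the gene of the pump PMCA2, had 107, 158 and 184 counts in the livers with Xist reads and 8 to 30 in the others (log2 fold change 3.36, SE 0.27, adjusted p = 0.00031 by edgeR). Bsg, which encodes the PMCA partner basigin, was higher in livers with Xist reads (log2 fold change 0.43, SE 0.08, adjusted p = 0.031 by edgeR), but it lost the call in 7 of the 8 fits that left out a single liver (adjusted p of at most 0.1). Camk2b, a calmodulin-dependent kinase gene, was lower, with 45, 90 and 30 counts against 164 to 253 (log2 fold change -2.03, SE 0.29, adjusted p = 0.0088 by edgeR).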

How the data were processed

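RNA-Seq tables of 6 mouse PSC libraries and 8 mouse livers were used, and samples were grouped by their labels. For livers, the authors deposited raw counts per gene with gene coordinates that match GRCm38. A further 7 count columns matched no described sample and were left out. For PSCs, the authors deposited a signal, gene counts divided by a size factor per library, beside their own comparison of Yoda1 with DMSO. That comparison (deposited log2 fold changes and standard errors, a test score, p-values and adjusted p-values) was not used. The submitters' processing notes name Trim Galore and HISAT2 2.0.5, and the counting tool was not given in the sources used here. All 98886 PSC values (100%) were whole multiples of a step per library, within 0.02 reads, and gave 27312894 to 39070539 reads per library.

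PSC values were tested on log2(value + 1) with limma 3.58.1 (variance trend, robust) for 15145 genes at 10 or more in at least 3 libraries. Liver counts were tested with edgeR 4.0.16 in R 4.3.3 (TMM, minimum count 10, robust quasi-likelihood fit of all 8 livers). Calls required a Benjamini-Hochberg adjusted p under 0.05 over all genes. edgeR on the recovered PSC reads called 343 genes higher and 351 lower, against 331 and 374 by limma. Other alternatives were DESeq2 1.42.0, other pseudocounts, scalings and filters, a term for Xist reads (over 1000 counts) and each library left out. limma without a variance trend and robust moderation, the block in edgeR, leaving out whole preparations and reading the Xist term itself were alternatives chosen after seeing the data. Same-numbered PSC libraries deviated together (correlations across genes of 0.43, 0.26 and 0.53), so the replicate numbers pair the samples. The main fit has no block, and blocked values are given for part of the genes. The steps were tested on simulated data.

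The 10 genes and the pathway lists were chosen with earlier results of these data known. Named beyond the 10 were, per list and direction, at most 3 genes past the threshold with the smallest p, with Piezo1 and Trpv4 as checks. Stim2, Nfatc3, Nfat5 and Atp2b2 as levels, the IP3 receptors, Rcan3, Homer3, Fkbp1a, Calm2, Calm3, Dyrk1b, Ptgs2, Xist, Bsg and Camk2b were chosen after their values were seen. Gene lengths are those of the liver table. Overlapping genes had a mean of at most 4.4 liver counts and none in the PSC table. Promoters are from RefSeq (GRCm38.p6).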

Additional observations from a re-analysis of the deposited data

How the results depend on the processing

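Each of the 10 genes in the livers stayed uncalled in both comparisons under every alternative. The number of the 10 called in PSCs, 1 in the report, was 5 with preparation as a replicate block, 6 with the block in edgeR on recovered reads, 4 by DESeq2, 5 without preparation 3 and 0 without preparation 1 or without preparation 2, and 1 to 3 with single libraries left out (3 without the Yoda1 library of preparation 3). Among all 15145 genes, the block called 1314 higher and 1446 lower (18.2% together), the block in edgeR 1394 and 1345, and DESeq2 817 and 798. Without preparation 3, 1424 and 1602 of 14685 genes were called, and without preparation 1 or preparation 2 the number was 0. The replicate block gave 9 pathway genes higher and 13 lower in PSCs, against 2 and 6. edgeR with the block gave 9 and 12, DESeq2 gave 13 lower, limma without a variance trend and robust moderation gave 3 lower, a log2 fold change over 1 left 0 higher and 2 lower, and leaving out whole preparations gave 0 and 0 (preparation 1), 0 and 0 (preparation 2) and 9 and 17 (preparation 3). Leaving out single libraries gave 0 to 1 higher and 0 to 10 lower, with 0 lower without either library of preparation 2, 1 without either library of preparation 1, 3 without the DMSO library of preparation 3 and 10 without the Yoda1 library of preparation 3. The same runs called 15 to 476 of all genes higher and 22 to 578 lower. Fewest were called without the Yoda1 library of preparation 2, and most (476 and 578) without that of preparation 3. Leaving out libraries leaves fewer residual degrees of freedom.

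In livers, pathway genes called between WT and TRPV4-KO, 0 in the report, were 4 with the replicate block, 4 by DESeq2, 3 without a filter, 3 with the Xist term, and 0 to 15 with single livers left out (15 without TRPV4-KO liver 3). Of all genes, 3.51% were called with the replicate block, 0.732% without a filter and 3.54% with the Xist term. Between WT and GSK219 DESeq2 called 2. Over all genes, calls between WT and TRPV4-KO went from 44 to 394 higher and 137 lower with the replicate block, and to 750 and 541 without TRPV4-KO liver 3. Replicate numbers did not pair the livers (correlations of -0.54 to 0.61), and WT has no replicate 3. DESeq2 called 483 genes higher and 343 lower between WT and TRPV4-KO, and 84 and 32 between WT and GSK219, against 0. In PSCs, 331 genes higher and 374 lower became 1314 and 1446 with the block, 817 and 798 by DESeq2, 181 and 174 without the trend and robust moderation, 1424 and 1602 without preparation 3, and 0 without preparation 1 or 2.

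Signs turned for uncalled differences. In PSCs, Nfatc4 went from -0.03 to 0.17 without the DMSO library of preparation 3, 0.13 without the Yoda1 library of preparation 1 and 0.002 without preparation 3, and Stim1 from -0.04 to 0.03 without preparation 1. In livers, with the replicate block, Atp2b4 turned to 0.11 (TRPV4-KO) and 0.13 (GSK219), Atp2a2 to 0.02 and 0.0007, and Stim1 to 0.05 (GSK219). Nfatc1 against TRPV4-KO was -0.0004 by DESeq2, -0.001 with RLE scaling and -0.03 without a filter, and Nfatc4 against GSK219 was -0.03 with the Xist term. With single livers left out, differences against TRPV4-KO ran from -0.23 to 0.19 (Atp2b4), -0.15 to 0.13 (Atp2a2), -0.31 to 0.04 (Rcan1), -0.82 to 1.4 (Rcan2) and -0.15 to 0.16 (Nfatc1). Those against GSK219 ran from -0.07 to 0.06 (Atp2b4), -0.22 to 0.18 (Atp2a2), -0.23 to 0.14 (Orai1), -0.08 to 0.03 (Stim1), -0.11 to 0.54 (Rcan1), -0.91 to 1.17 (Rcan2), -0.12 to 0.18 (Nfatc1) and -0.29 to 0.58 (Nfatc4). The cause of these shifts was not tested. Low counts limit Nfatc2 and Nfatc4, which had 2 to 28 counts per liver.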
